A study of Brassica napus with 6 samples.

Results

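Of the 79897 genes of rapeseed (Brassica napus) considered here, 31 were nearly silent in the shoot apices of one genotype and had reads in every library of the other. They were chosen by their counts. A gene had to have at most 3 counts summed over the 3 libraries of one genotype and at least 10 counts in each of the 3 libraries of the other. The whole table held 100194 genes, and 20297 of them, on chromosomes C03 and A09 and on unplaced scaffolds, were not considered. The mutant was nearly silent for 12 of the 31 genes and Westar for 19. The mutant plants (BnaC3.lfy△I2) lack intron 2 in their BnaC3 LEAFY gene, and they were set against wild-type plants of the cultivar Westar. Each genotype gave 3 libraries of polyadenylated RNA from shoot apices of plants grown in a chamber. The sources used here do not give plant age, the number of plants per library, the number of independent mutant lines or the line in which the deletion was made. The series asked what intron 2 does for the timing of inflorescence formation.

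LEAFY is a transcription factor that gives floral meristems their identity at the shoot apex, and introns can carry sequences that set when and where a gene is transcribed. Rapeseed is an allotetraploid with an A and a C subgenome, so most genes have a near-identical partner in the other subgenome and often further copies. A gene can have no reads in one line because it is not transcribed there, because the gene or part of it is missing, or because its sequence differs enough that reads are placed elsewhere. Counts of RNA reads cannot tell these apart, and in whole apices fewer cells of a type and less RNA per cell cannot be told apart either. The deposited IDs name a chromosome and a running number, and they are not paired with gene names, so no function is given for any of the 31 genes and the apex label was not checked against marker genes. Genes are called below by chromosome and running number, and the running number is taken for a gene's place in the row of genes.

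The mutant libraries 1, 2 and 3 held 18321109, 19017318 and 15922207 counts, and the Westar libraries 23261028, 17797615 and 18255399. At these depths, 3 counts over a genotype correspond to 0.0563 CPM (counts per 1000000 counts in genes) in the mutant and 0.0506 CPM in Westar. CPM values do not take gene length into account. Libraries of a genotype were not alike. Set against the median of the remaining libraries on the log2 scale, the median gene of A10 stood at -0.32 in mutant library 3, and the median gene of the first part of C09 stood at -0.22 in Westar library 1. Outside A10 and C09 the median absolute log2 deviation was 0.218 in mutant library 3, against 0.167 to 0.18 in the other 5 libraries. None of the 31 genes lay on A10, and 1, number 1474, lay in that part of C09, with 0 counts in every Westar library.

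The 12 genes silent in the mutant were on 7 chromosomes, and 6 of them had 0 counts in every mutant library. The gene with the most reads in Westar was BnaC04T0371400WE. It had 0, 0 and 0 counts in mutant libraries 1, 2 and 3, against 223, 129 and 134 in Westar (8.06 ± 1.32 CPM, SD, n = 3). At a floor of 3 counts over the mutant libraries, its level was at least 145-fold lower in the mutant. Number 3716 of C04, at a distance of 2 running numbers from it, had 0, 0 and 0 counts in the mutant, against 37, 29 and 38 in Westar, at least 31.1-fold lower. Both genes were thus without a read in each mutant library and steady in Westar. Fold values at a floor of 3 counts come from counts pooled over the libraries of each genotype. They leave out the spread between libraries. BnaA08T0042100WE had 0, 3 and 0 counts in the mutant, against 73, 68 and 46 in Westar (3.16 ± 0.651 CPM, SD, n = 3). All its mutant reads came from library 2, and the ratio of Westar to mutant was 56.0 (95% exact interval 18.9 to 274, for counting error only).

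Of the other genes silent in the mutant, 4 more had no mutant read at all. Number 3003 of A05 had 0, 0 and 0 counts in the mutant, against 19, 29 and 20 in Westar. Number 3953 of A03 had 0, 0 and 0, against 10, 20 and 15. Number 1747 of C06 had 0, 0 and 0, against 16, 13 and 18, and number 998 of C07 had 0, 0 and 0, against 13, 11 and 10. The last of these is the lowest of the 12, at 0.575 CPM in Westar and at least 10.2-fold lower in the mutant. The remaining 5 had 2 or 3 mutant reads each, in 2 of them all from 1 library. Number 2253 of A03 had 0, 0 and 2 counts in the mutant, against 37, 30 and 27 in Westar. Number 4094 of C05 had 3, 0 and 0, against 10, 15 and 16, and number 4863 of C06 had 2, 0 and 1, against 17, 10 and 17. In 2 genes of C04 the Westar level rested mostly on library 1. Number 2229 had 0, 1 and 2 counts in the mutant, against 50, 12 and 13 in Westar, and number 4417 had 2, 0 and 1, against 42, 12 and 12.

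The 19 genes silent in Westar were on 12 chromosomes, and 10 of them had 0 counts in every Westar library. BnaA01T0221300WE had the most reads, with 60, 206 and 313 counts in the mutant (11.3 ± 8.20 CPM, SD, n = 3), against 0, 0 and 0 in Westar. With counts pooled by genotype and a floor of 3 counts over Westar, its level was at least 215-fold higher in the mutant. That value leaves out the spread between libraries. This gene also varied most among the mutant libraries, with mutant library 3 at 6.0 times the CPM of library 1. BnaC01T0090300WE had 106, 165 and 156 counts in the mutant (8.09 ± 2.07 CPM, SD, n = 3), against 1, 0 and 0 in Westar. The ratio of mutant to Westar was 476, with an exact 95% interval of 84.9 to 18800 that shows how little a single Westar read fixes it. Number 132 of C08 had 54, 229 and 51 counts in the mutant, against 1, 0 and 1 in Westar. Mutant library 2 stood at 4.09 times the lowest mutant library there, yet even the lowest mutant library was far from Westar. Number 992 of C06 had 83, 84 and 99 counts, against 0, 0 and 0, and number 2532 of C07 had 36, 69 and 57, against 0, 0 and 0.

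The remaining 14 genes silent in Westar had lower counts in the mutant. Those with no Westar read were 7 in number. Among them, number 2761 of C08 had 19, 42 and 44 counts in the mutant, number 1685 of A04 had 32, 39 and 19, and number 3111 of C01 had 29, 28 and 30, all against 0, 0 and 0 in Westar. Number 1474 of C09 had 31, 17 and 33 counts in the mutant and number 2570 of A05 had 28, 41 and 12, again against 0, 0 and 0. The lowest of these 7 were number 1691 of C01, with 26, 19 and 11 counts, and number 5163 of C04, with 21, 13 and 19, both against 0, 0 and 0 in Westar. The other 7 had 1 to 3 Westar reads. Number 1400 of C05 had 38, 39 and 34 counts in the mutant, against 0, 3 and 0 in Westar, and its neighbour, number 1399, had 32, 16 and 15, against 0, 0 and 2. Number 1570 of C05 had 17, 27 and 19, against 0, 1 and 2. Number 3331 of C02 had 12, 26 and 20, against 1, 0 and 0. No Westar library carried all of these reads. Number 1358 of A02 had 19, 22 and 16 counts in the mutant, against 1, 0 and 1 in Westar. Number 252 of C06 had 12, 16 and 10, against 0, 1 and 1, and number 1514 of A05 had 13, 10 and 14, against 0, 1 and 2.

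**Figure D1:**
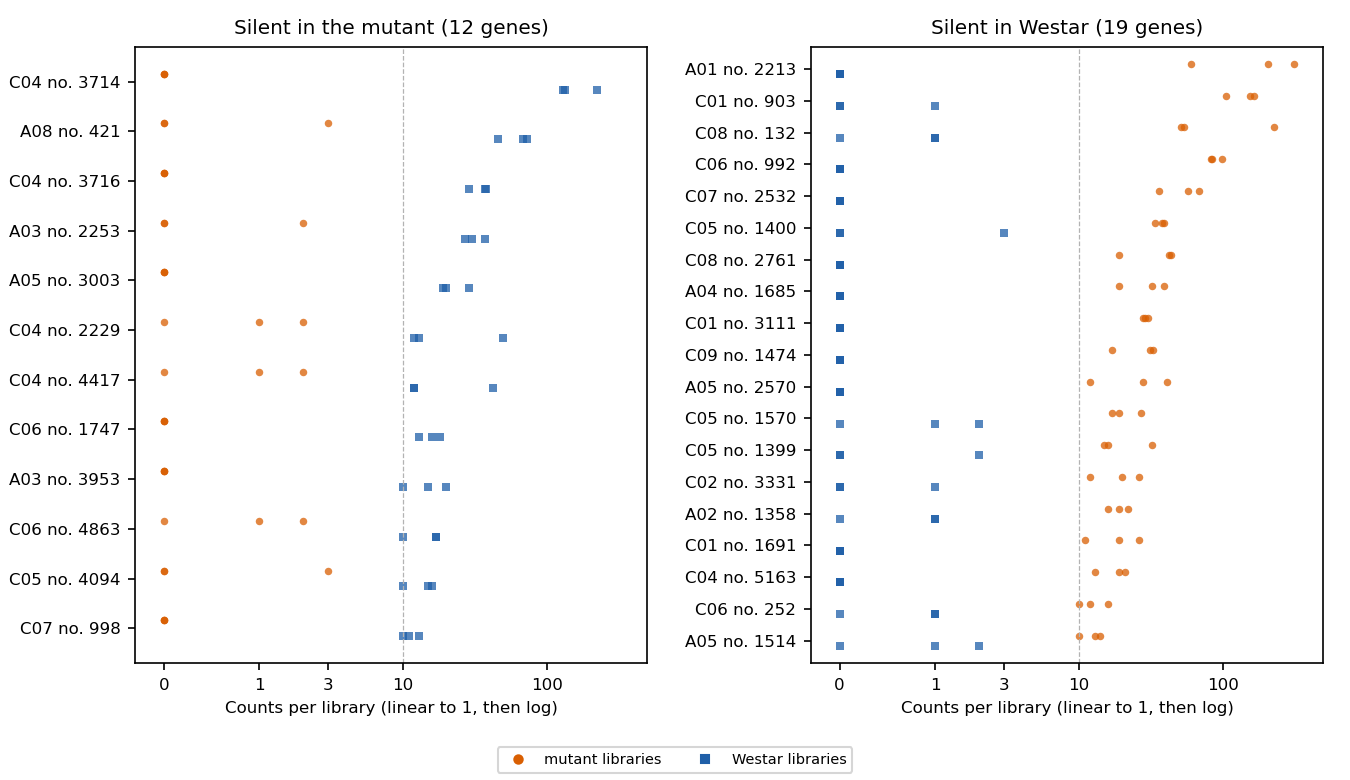
Counts of the 31 genes in each library (x axis, linear to 1 and logarithmic above), with mutant libraries as orange circles drawn above Westar libraries as blue squares in each row, ordered by the mean CPM of the genotype with reads. The dashed line marks the 10 counts that the choice required; the silent genotype reaches at most 3 counts in any library, and the other extends up to 223 counts (left) and 313 counts (right).

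Most of the 31 genes had few reads in the genotype that expressed them. The median CPM in the genotype with reads was 1.11 for the 12 genes silent in the mutant (0.575 to 8.06) and 1.55 for the 19 silent in Westar (0.705 to 11.3). For all tested genes the median was 8.66 CPM, taken over all 6 libraries and not over 1 genotype. Only 1 of the 12 and 4 of the 19 reached 5 CPM. Within the genotype with reads, the highest library had a median of 1.59 times the CPM of the lowest for the 12 genes and 1.75 times for the 19. Of the 19 genes silent in Westar, mutant library 3 was the highest of the mutant libraries in 9, library 2 in 8 and library 1 in 2. Of the 12 silent in the mutant, Westar libraries 1, 2 and 3 were the highest in 3, 5 and 4.

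Because the counts chose the genes, the difference between the genotypes at the 31 genes is a description and was not tested. For orientation, 28 of the 31 passed the filter on low counts, which the choice makes likely, and the edgeR quasi-likelihood test across all genes called 16 of these at an adjusted p under 0.05. Over all tested genes it called 0.194% (94 of 48524). It called 12 of the 18 tested genes silent in Westar, where 0.124% of all tested genes were called higher in the mutant, and 4 of the 10 tested genes silent in the mutant, where 0.0701% were called lower. DESeq2 called 27 of the 31, with 1.61% of all tested genes called. Nothing is read from these shares.

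The thresholds cut through a continuous range. With at least 10 counts in every library of the other genotype, 5 genes had exactly 3 counts over the mutant and 6 had 4 to 6, while 3 had exactly 3 counts over Westar and 6 had 4 to 6. On the other threshold, 6 of the genes silent in the mutant had a lowest Westar count of 10 to 12, and 7 further genes of at most 3 mutant counts had a lowest count of 7 to 9. For Westar these numbers were 5 and 5. One gene just outside, number 4290 of A06, had 169, 138 and 121 counts in the mutant, against 4, 1 and 0 in Westar, more reads than most of the 31. On the chromosomes not considered, 3 genes met the same thresholds. All 3 were silent in the mutant and lay on A09, and 2 of them, numbers 4325 and 4326, were direct neighbours.

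Each library was also left out of the choice in turn and then read for the genes chosen from the other 5. The thresholds were set with earlier results of these data known, so this is not an independent look at the contrast. The limit of 3 counts was kept for the remaining libraries of the silent genotype. Without a mutant library, 19, 23 and 23 genes were chosen as silent in the mutant (library 1, 2 or 3 left out). Of these, 15, 16 and 16 had at most 3 counts in the left-out mutant library, always with the 12 genes among them by construction, and 1, 3 and 3 had at least 10. Among those was number 3319 of C05, with 1, 16 and 1 counts in the mutant, against 64, 73 and 44 in Westar. Without a Westar library, 18, 17 and 17 genes were chosen as silent in the mutant, of which 4, 3 and 1 had at most 3 counts in the left-out Westar library and 2, 2 and 4 had 4 to 9. The rest, with at least 10 counts in it, are by construction the 12 genes themselves, so their number carries no information of its own.

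Some genes entered the choice as silent in the mutant only when a Westar library was left out, and had few or no reads in that library. Number 1379 of A04 had 0, 0 and 0 counts in the mutant, against 15, 0 and 64 in Westar, and number 454 of A04 had 0, 0 and 0, against 0, 15 and 21. Number 3726 of A05 had 0, 2 and 1 counts in the mutant, against 67, 3 and 60 in Westar. The next gene, number 3727, had the same shape, with 0, 3 and 0 counts in the mutant, against 38, 7 and 37 in Westar. In this neighbouring pair, Westar library 2 was far below Westar libraries 1 and 3.

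Among genes silent in Westar, those with at least 10 counts in a left-out mutant library are likewise the 19 genes by construction. The differences between the libraries were not tested. Without mutant library 1, 26 genes were chosen, of which 6 had 4 to 9 counts in it and 1 had at most 3. Without mutant library 2, 21 were chosen, of which 2 had 4 to 9 counts in it and 0 had at most 3. Without mutant library 3, 30 were chosen, of which 3 had 4 to 9 counts in it and 8 had at most 3. Those 8 genes lay on 7 chromosomes, among them number 502 of C04 (11, 21 and 0 counts in the mutant, against 0, 0 and 0 in Westar), number 3876 of C01 (16, 21 and 2, against 0, 0 and 0) and number 2794 of A10 (15, 16 and 0, against 1, 0 and 1). Mutant library 3 had the fewest counts of all libraries and lower A10 levels, and the part of either was not tested. In the Westar libraries, 25, 26 and 25 genes were chosen without library 1, 2 or 3, of which 21, 21 and 19 had at most 3 counts in the left-out library, always with the 19 genes among them, and 0, 2 and 2 had at least 10. One of those was number 2850 of A02, with 113, 22 and 24 counts in the mutant, against 0, 47 and 1 in Westar.

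**Figure D2:**
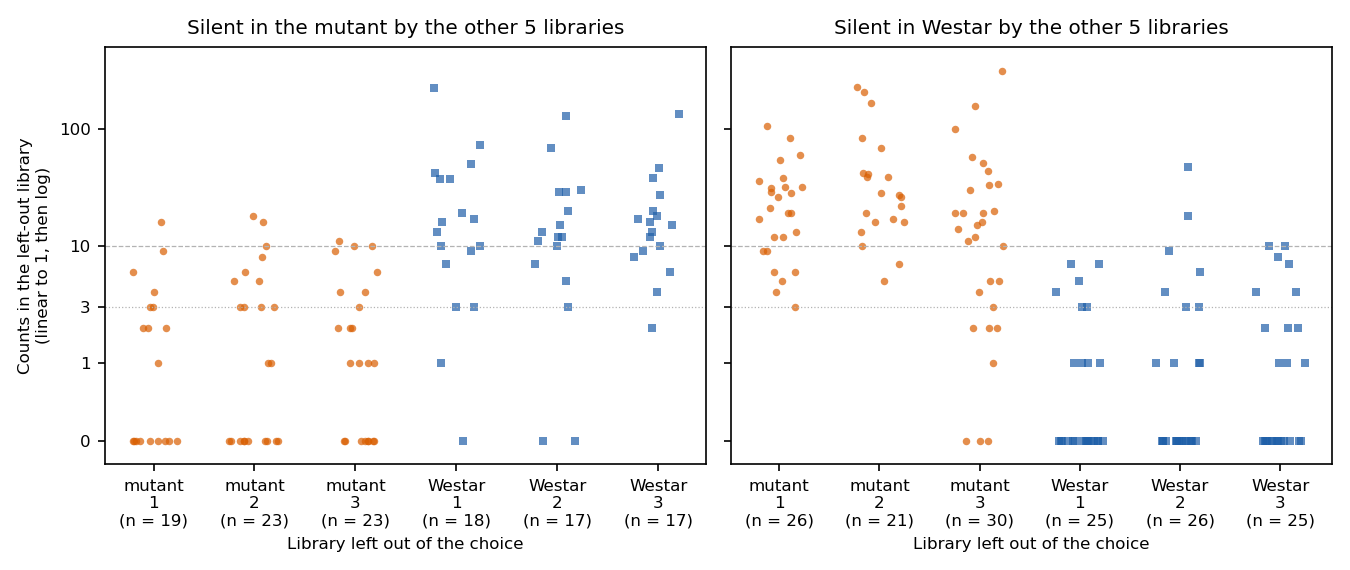
Counts in 1 library (y axis, linear to 1 and logarithmic above) of the genes chosen without it, for genes silent in the mutant (left) and in Westar (right), each point a gene, with the number chosen under each library. The dotted line marks 3 and the dashed line 10 counts; in the right panel 8 of 30 genes lie at or under 3 counts in mutant library 3, against 1 of 26 in mutant library 1 and 0 of 21 in mutant library 2.

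The 31 genes were spread over 14 of the 17 chromosomes considered. C04 held 5, C05 and C06 held 4 each, and A05 and C01 held 3 each, while A06, A07 and A10 held 0. On C01 all 3 were silent in Westar, and on A03 both were silent in the mutant. On C04 it was 4 of 5 that were silent in the mutant. The C subgenome held 22 of the 31 and the A subgenome 9. As a share of the genes with at least 10 counts in every library of a genotype, this was 0.106% of 20770 in the C subgenome and 0.0483% of 18641 in the A subgenome. The split was 8 and 4 for the genes silent in the mutant and 14 and 5 for those silent in Westar. Neither the split nor the spread over chromosomes was tested.

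Along the chromosomes, the genes ran from 2.61% (number 132 of C08) to 99.5% (number 4863 of C06) of the highest running number. Of the 31, 3 lay in the first or last 10% of the running numbers, where 20.1% of all genes considered lie, with or without reads. This difference was not tested. None of the 31 had an ID with a numbered suffix, which 2680 IDs of the whole table carry but only 177 of the 48524 tested genes. Just 2 pairs lay within 10 running numbers of each other: numbers 1399 and 1400 of C05, both silent in Westar, and numbers 3714 and 3716 of C04, both silent in the mutant. The next closest pair of genes, numbers 1400 and 1570 of C05, was 170 numbers apart.

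**Figure D3:**
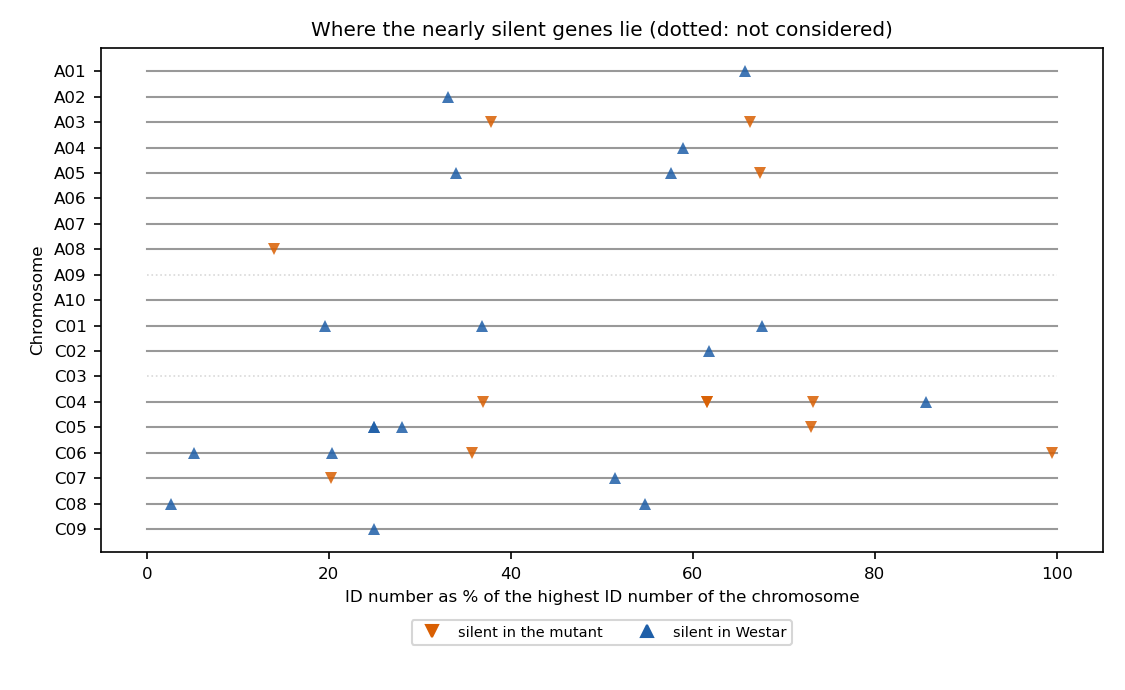
Position of the 31 genes on each chromosome (y axis) as the running number in percent of the highest running number of that chromosome (x axis), with genes silent in the mutant as orange triangles pointing down and genes silent in Westar as blue triangles pointing up. C03 and A09, drawn dotted, were not considered; C04 holds 5 genes, and the close pairs on C04 and C05 overlap in the plot.

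Most of the silent genes stood between expressed genes. For 26 of the 31, a gene with at least 10 counts in all 6 libraries lay within 5 running numbers on both sides. Of all genes considered, 46.6% have at least 10 counts in every library, so such flanking genes are common and nothing particular to the 31 is read from this. The median distance between the flanking genes was 4 running numbers. In 5 cases the flanking genes were the direct neighbours on both sides, as around number 4417 of C04, number 1570 of C05 and number 1474 of C09. For 10 genes neither direct neighbour was such a gene. Number 2570 of A05 differed from the others in this. The nearest such genes were numbers 2418 and 2631, a distance of 213 running numbers, and each of the 10 numbers around it had 0 to 3 counts over all 6 libraries. The next longest distance was 15, around number 2213 of A01. Of the 58 flanking genes, 1 was called changed (edgeR quasi-likelihood test), number 902 of C01, against 0.194% of all tested genes. A neighbour under 10 counts in any library could not be a flanking gene. Number 2252 of A03, number 2230 of C04 and number 1401 of C05, described below, were passed over for this reason. The number called is therefore partly set by the definition, and nothing is read from it.

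The genes beside the silent ones were not part of the choice, so the genotypes were compared there. Within 5 running numbers lay 300 further genes, of which 103 (34.3%) had 0 counts in all libraries, against 30.6% of all genes considered, and 142 were tested. Of these 142, 2 were called changed (1.41%, against 0.194% of all tested genes), both directly beside a silent gene. The 142 do not include silent genes that lie near another silent gene. Taken over all 142, the signs were nearly balanced. The log2 fold change had the sign of the silent gene's own difference in 74 of the 142 and the opposite sign in 68, with a median of 0.03 toward the genotype in which the silent gene had reads. An unadjusted p under 0.05 was reached by 15 of the 142 (10.6%), against 11.5% of all tested genes. Of these 15, 12 had the sign of the silent gene's difference and 3 the opposite, a split that was not tested. The CPM of the genotypes did not overlap in 28 (19.7%), against 18.3% of all tested genes.

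Among the 30 tested genes directly beside a silent gene, a set formed after the values were seen, the numbers were higher. An unadjusted p under 0.05 was reached by 8 (26.7%, against the 11.5% above), 7 of them with the sign of the silent gene's difference and 1 with the opposite. The CPM of the genotypes did not overlap in 10 of the 30 (33.3%, against the 18.3% above). These shares were not tested against each other. The sources used here do not say whether reads were counted by strand, so reads shared by overlapping neighbours cannot be told apart from a change of both genes, and the part of near-identical copies was not tested.

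**Figure D4:**
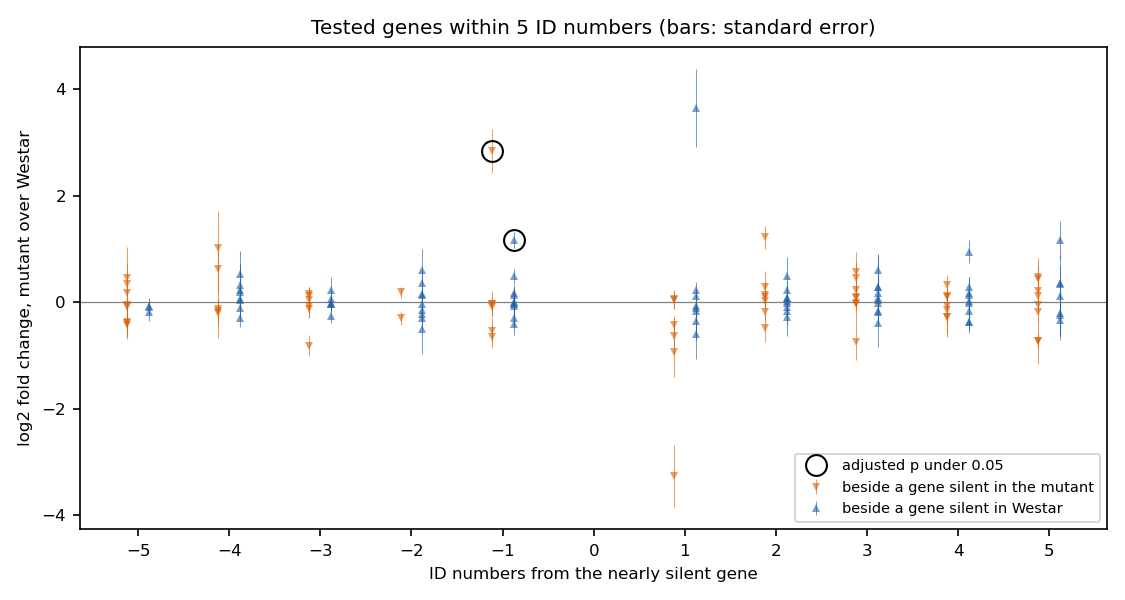
Log2 fold change of mutant over Westar (y axis, with standard error bars) of the 142 tested genes within 5 running numbers of a silent gene (x axis), with orange triangles pointing down beside genes silent in the mutant and blue triangles pointing up beside genes silent in Westar. Circles mark the 2 genes called changed, at log2 fold changes of 2.83 and 1.17; values of 3.65 and -3.27, directly after a silent gene, were not called, and most others lie close to 0.

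Number 902 of C01, directly before the silent gene 903, was higher in the mutant like gene 903 itself. It had 350, 394 and 298 counts in the mutant (19.5 ± 1.06 CPM, SD, n = 3), against 206, 133 and 193 in Westar (8.97 ± 1.55 CPM, SD, n = 3), and the genotypes did not overlap. The log2 fold change was 1.17 (SE 0.149, edgeR quasi-likelihood test, adjusted p = 0.0233). The genes around this pair did not follow: number 901 had a log2 fold change of -0.22 (edgeR adjusted p = 0.591) and number 905 of -0.08 (edgeR adjusted p = 0.898). The call of number 902 was lost in 6 of 10 alternatives, with an edgeR adjusted p of up to 0.14, among them each of the 5 that left out a library other than mutant library 3. Its log2 fold change stayed between 1.07 and 1.29 in all 10.

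On A03 a gene silent in the mutant lay next to one that rose there. Number 2252 had 62, 63 and 30 counts in the mutant (2.86 ± 0.846 CPM, SD, n = 3), against 7, 9 and 8 in Westar (0.415 ± 0.104 CPM, SD, n = 3). The log2 fold change was 2.83 (SE 0.412, edgeR quasi-likelihood test, adjusted p = 0.0366), while its neighbour 2253 had 2 counts over the mutant and 94 over Westar. So the reads of number 2252 were high where those of number 2253 were near 0, and low where number 2253 had reads. Further along, number 2255 had 340, 268 and 211 counts in the mutant, against 174, 85 and 147 in Westar (log2 fold change 1.22, SE 0.215, edgeR adjusted p = 0.0745). The genotypes did not overlap there, and number 2255 was called by DESeq2 (adjusted p = 9.068e-05) and by edgeR with no filter on low counts. Number 2257 was at a log2 fold change of 0.11 (edgeR adjusted p = 0.821). Number 2252 lost its call in 6 of 10 alternatives too, with an edgeR adjusted p of up to 0.183, while its log2 fold change stayed between 2.62 and 3.07 in all 10.

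On C05 the silent pair had a similar gene beside it. Number 1401, next to the silent genes 1399 and 1400, had 27, 16 and 27 counts in the mutant, against 0, 2 and 4 in Westar, which its 6 Westar reads put just outside the choice. Its log2 fold change was 3.65 (SE 0.737) but did not pass (edgeR adjusted p = 0.111; DESeq2 and edgeR with no filter on low counts called it). The 3 genes together form a run that is near 0 in Westar and expressed in the mutant. Expressed genes that did not differ detectably enclosed this run. Number 1398 had 63, 82 and 108 counts in the mutant, against 144, 80 and 91 in Westar (log2 fold change -0.08, edgeR adjusted p = 0.938), and number 1402 had 485, 435 and 449, against 590, 516 and 470 (log2 fold change -0.01, edgeR adjusted p = 0.99). Beyond them, number 1404 was at 14.3 ± 3.63 CPM in the mutant and 7.66 ± 1.01 CPM in Westar (SD, n = 3 each), a log2 fold change of 0.95 that did not pass in edgeR (adjusted p = 0.153) but did in DESeq2 (adjusted p = 0.00934) and in edgeR with no filter on low counts.

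On C04, number 2230 lay directly after the silent gene 2229 and leaned the same way. It had 12, 2 and 8 counts in the mutant, against 146, 34 and 80 in Westar, a log2 fold change of -3.27 (SE 0.584) that missed the threshold (edgeR adjusted p = 0.0773). The genotypes did not overlap, and it was called by DESeq2 (adjusted p = 1.815e-06), by edgeR with no filter on low counts, and with the replicate number as a block in the fit. In both genes Westar library 1 was the highest library. Westar library 2 was the lowest in both, but in number 2229 it had 12 counts against 13 in library 3, too close to order them. Number 2231, the next gene, was at 17.6 ± 2.64 CPM in the mutant and 20.7 ± 3.19 CPM in Westar (SD, n = 3 each; edgeR adjusted p = 0.688).

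The pair of numbers 3714 and 3716 of C04 enclosed number 3715, which had 0 counts in all libraries. Directly outside the pair, number 3713 was at 9.92 ± 1.75 CPM in the mutant and 10.5 ± 3.77 CPM in Westar, and number 3717 at 162 ± 26.9 CPM in the mutant and 162 ± 23.6 CPM in Westar (SD, n = 3 each). Farther out, number 3711 leaned with the silent genes, at 14.8 ± 2.51 CPM in the mutant and 26.8 ± 6.92 CPM in Westar (SD, n = 3 each), and the genotypes did not overlap. Its log2 fold change of -0.81 (SE 0.198) did not pass in edgeR (adjusted p = 0.177) and passed in DESeq2 (adjusted p = 0.0148). Around BnaA01T0221300WE there was little to compare: number 2212 had 1 count in all, in Westar library 3, and number 2214 had 7, 4 and 1 counts in the mutant, against 19, 2 and 1 in Westar. Directly after BnaA08T0042100WE, number 422 had 97, 113 and 87 counts in the mutant, against 193, 119 and 148 in Westar. It leaned with the silent gene but did not pass (log2 fold change -0.42, SE 0.164, edgeR adjusted p = 0.368). On A05, number 3008 lay 5 running numbers after the silent gene 3003 and leaned with that gene. It had 837, 653 and 660 counts in the mutant, against 1692, 1116 and 1339 in Westar, and the genotypes did not overlap. Its log2 fold change of -0.74 (SE 0.133) did not pass in edgeR (adjusted p = 0.0773). It passed in DESeq2 (adjusted p = 0.000649) and in edgeR with no filter on low counts.

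**Figure D5:**
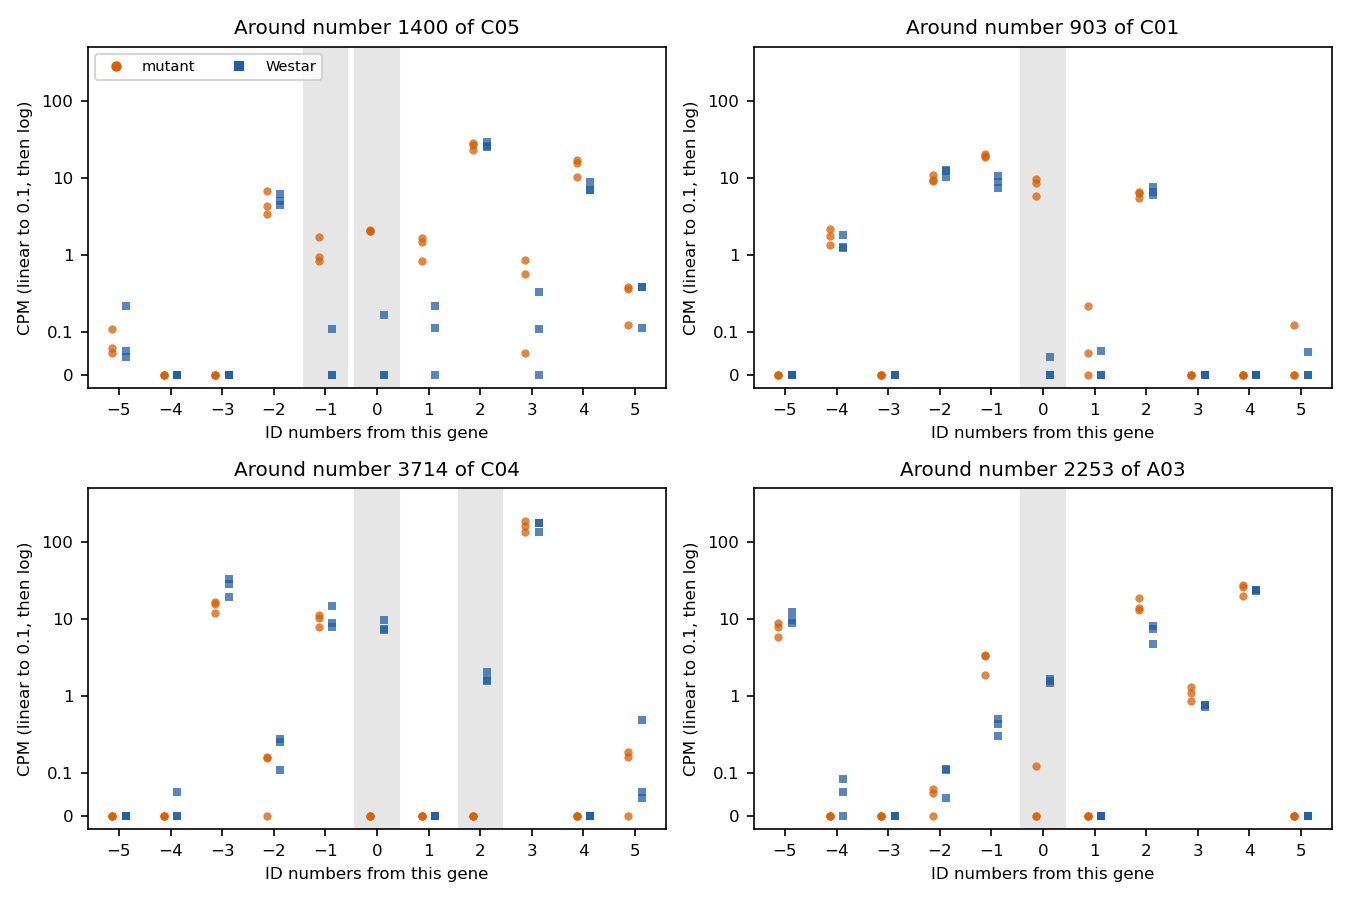
CPM in each library (y axis, linear to 0.1 and logarithmic above) of the genes within 5 running numbers of 4 silent genes (x axis), with mutant libraries as orange circles left of Westar libraries as blue squares and the silent genes shaded. On C05 the 2 silent genes and the next one are low in Westar, on C01 the gene before the silent one is higher in the mutant, on C04 the genes directly outside the pair overlap, and on A03 the gene before the silent one has the opposite difference.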

How the data were processed

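The values are raw counts of reads in genes, which the authors deposited as a single table with 6 columns, 1 per library and none pooled. The submitters' processing notes name HISAT2 2.2.1 and featureCounts. The sources used here give neither build nor annotation. The gene IDs shown here, for either direction, end in the letters that label the Westar columns. Whether the annotation was made from Westar was not tested. If it was, a missing or differing gene need not be equally likely in both genotypes. The sources also do not say how strand and multi-mapping reads were treated, so reads of near-identical copies may have been moved or dropped. Groups and replicate numbers come from the sample titles. These do not say whether libraries came from separate plants. The p-values set the difference between the genotypes against the spread between libraries, which may be partly technical.

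The IDs matched 0 entries of the RefSeq gene table of the Da-Ae assembly. For this reason the LEAFY copies are not analysed here and no sequence is shown. The members, the thresholds and the gene groups were chosen with earlier results of these data known. All members are given by chromosome and running number (full IDs only for the 2 per genotype with the most reads); neighbours are named where called or beside such a gene, and other genes after their values were seen.

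All 48524 genes passing filterByExpr (minimum count 10) were tested with the quasi-likelihood test of edgeR 4.0.16 in R 4.3.3 (TMM scaling, group as the sole term, Benjamini-Hochberg adjustment over all tested genes), after a check on simulated counts. DESeq2 1.42.0 was run on the same genes. Exact intervals came from scipy 1.17.1. Intervals and floors cover counting error only and leave out the spread between libraries. They also treat each read as a separate molecule, which cannot be checked for reads that carry no molecular identifiers. Alternatives were median-of-ratios (RLE) scaling, no filter, DESeq2, a replicate block, leaving out each library, other thresholds and other distances.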

Additional observations from a re-analysis of the deposited data

How the results depend on the processing

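The 19 genes silent in Westar and the 12 silent in the mutant became 10 and 6 when 0 counts were required in the silent genotype, and 45 and 40 when 10 were allowed. With at least 5 counts in every library of the other genotype they became 47 and 27, and with at least 20 they became 7 and 4. With counts scaled to the mean library total they became 16 and 7. Leaving out 1 library gave 21 to 30 and 17 to 23 genes. The 94 genes called over all tested genes became 451 with no filter, 779 with DESeq2, 49 with the replicate block and 18 to 167 without 1 library. The 2 neighbours called, of 142 tested, became 7 of 197 with no filter. With DESeq2 they became 8 of 142 (5.63%, against 1.61% of all tested genes), 6 leaning with the silent gene and 2 against. The replicate block gave 1 (number 2230 of C04, neither of the 2), and leaving out 1 library gave 0 to 2. The cause of these changes was not tested. The median log2 fold change of neighbours toward the genotype with reads was 0.046 with no filter, 0.0015 within 2 and -0.0074 within 10 running numbers, and 0.0063 to 0.053 without 1 library. The set of genes directly beside a silent gene was chosen after seeing the data.

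Across genes, libraries of the same number deviated from the mean of their genotype with correlations of -0.12, -0.08 and 0.14. Mutant library 3 correlated best with Westar library 3, but mutant libraries 1 and 2 did not with their own numbers, so the numbers were not taken to pair the libraries. Genes with under about 10 counts per library could not enter the choice, so silent genes of low expression were not detectable at this depth.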

Other observations

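Outside the 31 genes, the 3 genes of A09 that met the thresholds were all near 0 in the mutant. Number 4325 had 0, 2 and 0 counts in the mutant, against 16, 42 and 18 in Westar, and number 4326, its direct neighbour, had 1, 0 and 1, against 22, 42 and 39. Number 4721 had 2, 0 and 0, against 11, 30 and 23. Among genes chosen without a Westar library, number 2289 of A01 had 0, 0 and 2 counts in the mutant, against 50, 0 and 26 in Westar, and number 1590 of A01 had 81, 117 and 46 in the mutant, against 2, 18 and 0 in Westar. In number 2289 Westar library 2 was at 0 like mutant libraries 1 and 2, while in number 1590 every mutant library was above every Westar library.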
